A study of Homo sapiens with 12 samples.

Results

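The MAP4K and TAO kinases were followed at the mRNA level in MDA-MB-231 cells, a mesenchymal triple-negative breast cancer line, that carried either wt-GR or the S134A form of the glucocorticoid receptor (GR). The 10 members were chosen by gene symbol: MAP4K1, MAP4K2, MAP4K3, MAP4K4, MAP4K5, MINK1, TNIK, TAOK1, TAOK2 and TAOK3. All 10 were listed in each of the 12 libraries, among 19907 symbols, and all 10 were among the 18579 genes tested, which had 10 or more reads in total. The members were chosen with differences between the lines in these libraries already seen, and MAP4K4 had been named for its difference. Differences between the lines are therefore given below as a description. Where members past the limma threshold between the lines are counted, the share of all genes stands beside the count and nothing is read from it. The responses to TGFβ1 and the difference between those responses were tested.

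There were 4 groups of 3 libraries. The wt-GR cells were a non-targeted clone, 34A, recovered during the same editing, and the S134A-GR cells were clone #1, in which CRISPR/Cas9 had changed Ser134 of both NR3C1 alleles to alanine. Cells of all groups were kept for 18 h in IMEM medium with 1% DCC, a serum stripped of steroid hormones. Vehicle (Veh) or TGFβ1, at 10 ng/mL, was then given over 6 h. Each line was 1 clone, so the edit and the history of the clone cannot be told apart. The labels do not say whether the 3 libraries of a group came from separate cultures, so every p-value measures the spread between these libraries only.

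The MAP4Ks and the TAO kinases belong to the STE20 kinases. MAP4Ks sit at the top of MAP kinase cascades and activate MAP3Ks, which activate MAP2Ks and through them the stress kinases JNK and p38. MAP4K4, MINK1 and TNIK form the Misshapen branch, whose members carry a citron homology domain and bind the STRIPAK phosphatase complex. TAOK1, TAOK2 and TAOK3 phosphorylate the MAP2Ks of the p38 cascade and the Hippo kinases. Several MAP4Ks phosphorylate LATS1 and LATS2, the Hippo kinases that restrain YAP1 and WWTR1 (TAZ). In breast cancer cells MAP4K4 is known for its part in migration.

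The libraries held 56362036 to 129832227 reads over genes, and a floor of 3 reads corresponded to 2.15 to 4.89 normalized counts. Each total was above the average read number per sample in the study's methods. How read pairs were counted is not given, so whether each recovered read is an independent fragment is not known. Library 1 of wt-GR under Veh was the shallowest. VIM, CD44, AXL, EGFR, CAV1 and NR3C1 were abundant in all libraries, ESR1 lay between 0 and 7.32 normalized counts and CDH1 between 1.05 and 12.5. ERBB2 mRNA was present at 7229 to 10589 normalized counts, although triple-negative cells are scored as lacking its overexpression, and PGR was not analysed here. The luminal or epithelial markers CDH1, EPCAM, GATA3, KRT8 and KRT18 summed to 98347 to 105440 normalized counts in wt-GR and 95423 to 101460 in S134A-GR under Veh. KRT8 and KRT18 made up most of these sums, with Veh means of 63025 and 35947 in wt-GR and 65433 and 31144 in S134A-GR. The sums hide markers that went in opposite directions. Under Veh, EPCAM had means of 1024 in wt-GR and 378 in S134A-GR, and GATA3 had 808 and 1093. The fibroblast or endothelial markers PDGFRB, DCN, LUM, PECAM1 and CDH5 summed to 3656 to 3760 in wt-GR and 2938 to 3146 in S134A-GR under Veh. DCN and LUM were under 5 in every library. PDGFRB and PECAM1 made up most of these sums, while CDH5 had Veh means of 186.59 in wt-GR and 19.011 in S134A-GR. The part of the luminal, epithelial, fibroblast and endothelial markers in the differences between the lines was not tested. NR3C1 itself, the edited gene, had means of 11771 ± 1186 normalized counts in wt-GR and 8815 ± 259 in S134A-GR under Veh (SD, n = 3). A changed codon leaves the mRNA in place, so this level does not check the genotype labels.

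The Misshapen kinases are close relatives, and reads of 75 bases had to be told apart between them. Over the first 300 residues, translated from the GENCODE release 44 models and holding most of the kinase domain, MAP4K4 was 91% identical to TNIK and 90.7% to MINK1, and MINK1 was 89.3% identical to TNIK. TAOK1 was 88.3% identical to TAOK2 and 86.5% to TAOK3, and MAP4K3 was 82.7% identical to MAP4K5. The mRNAs differed more. The 75-base coding stretch of MAP4K4 with the fewest summed differences from MINK1 and TNIK is shown, read 5′ to 3′ along each transcript. Matches were sought without gaps near the same coding position, and MINK1 was not scored against TNIK in this choice. It lies in exon 7 of each gene's canonical transcript and covers codons 188 to 212, within the first 300 residues compared above. The positions are chr2:101831774-101831848 on the plus strand for MAP4K4, chr17:4885536-4885610 on the plus strand for MINK1 and chr3:171188705-171188779 on the minus strand for TNIK (hg38), and capitals mark positions at which the 3 genes are not all alike.
MAP4K4: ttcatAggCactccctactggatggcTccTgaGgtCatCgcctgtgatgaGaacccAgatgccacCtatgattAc
MINK1: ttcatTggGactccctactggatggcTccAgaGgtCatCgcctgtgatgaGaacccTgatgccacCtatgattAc
TNIK: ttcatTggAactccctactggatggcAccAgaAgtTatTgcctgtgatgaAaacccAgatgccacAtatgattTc
Even here 11 of 75 positions differed among the 3. MAP4K4 differed from MINK1 at 4 positions and from TNIK at 10, and MINK1 differed from TNIK at 9. Taken pair by pair, the closest 75-base stretches had 3 differences between MAP4K4 and MINK1, 8 between MAP4K4 and TNIK and 8 between MINK1 and TNIK. The longest run of identical coding bases was 26 between MAP4K4 and MINK1, 35 between MAP4K4 and TNIK and 18 between MINK1 and TNIK. Over all annotated transcripts, 0 stretches of 75 bases were shared between any 2 of the 10 members. MAP4K4, TAOK2 and TAOK3 shared none with any gene. MINK1 shared the most, 217 stretches or 2.43% of its own, with CHRNE, which overlaps it on the opposite strand by 291 exon bases, and whether counting used strand is not given in the sources used here.

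Levels of different genes were compared as normalized counts per kilobase of annotated exon. In wt-GR cells under Veh the order was MAP4K4 (1966 ± 86.9 per kb, SD, n = 3), MINK1 (1785 ± 40.9), MAP4K5 (1427 ± 40.2), TAOK3 (983 ± 16.4), TAOK1 (945 ± 195), TAOK2 (696 ± 14.3), MAP4K3 (576 ± 33.3), MAP4K2 (269 ± 2.75), TNIK (85.0 ± 12.4) and MAP4K1 (1.63 ± 1.07). Of these neighbours in the order, TAOK3 and TAOK1 overlapped between libraries and the others did not. In S134A-GR cells under Veh the order began with MINK1 (2046 ± 67.7 per kb), MAP4K5 (1288 ± 26.5) and TAOK3 (1134 ± 28.4), and MAP4K4 came 4th at 1062 ± 38.6. TAOK2 (852 ± 21.5) stood above TAOK1 (740 ± 31.2) there, in the reverse of their order in wt-GR. The lower end of the order, MAP4K3, MAP4K2, TNIK and MAP4K1, was the same in all 4 groups. Under TGFβ1 the order in wt-GR was as under Veh, while in S134A-GR TAOK1 stood above TAOK2 with overlapping libraries, and MAP4K4 overlapped TAOK3.

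**Figure D1:**
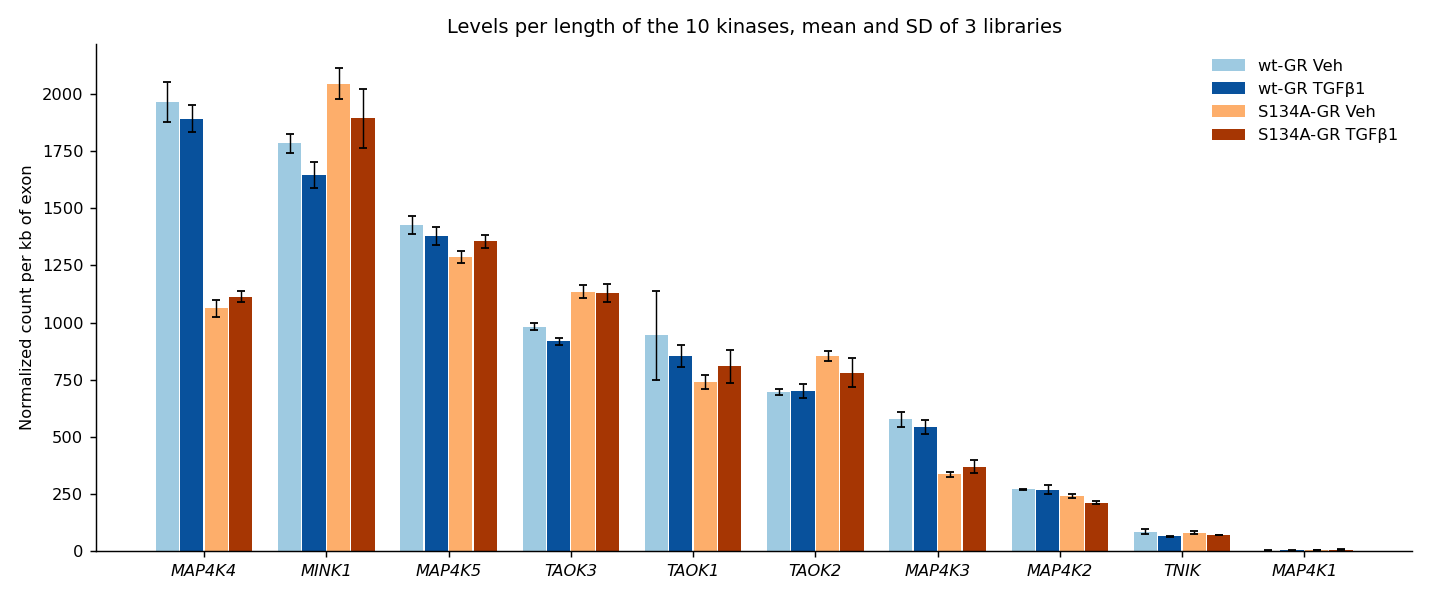
Bars give the mean normalized count per kilobase of annotated exon for each kinase in the 4 groups, and error bars the SD of 3 libraries. MAP4K4 is the tallest of the 10 in wt-GR cells and stands 4th in S134A-GR cells, where MINK1 leads, and MAP4K1 lies at 1.63 to 4.72 per kb.

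Between the lines under Veh, 8 of 10 members passed an adjusted p of 0.05 by limma, where 51.5% of all genes tested did. Of these, 3 were higher in S134A-GR (25% of all genes) and 5 were lower (26.5% of all genes). Under TGFβ1, 6 of 10 passed, against 48.8% of all genes, with 3 higher (23.1% of all genes) and 3 lower (25.7% of all genes). The libraries of both lines did not overlap for 7 of 10 members under Veh (57.3% of all genes) and for 6 of 10 under TGFβ1 (55.6% of all genes). Leaving out 1 library gave 6 to 9 members under Veh and 5 to 6 under TGFβ1. TAOK1 was lost without library 1 or 2 of wt-GR or library 1 of S134A-GR under Veh, MAP4K2 without library 2 of wt-GR or library 3 of S134A-GR under Veh, and TAOK2 without library 2 or 3 of either line under TGFβ1, while MAP4K1 was gained without library 3 of wt-GR under Veh. The median size of the log2 fold change, taken without its sign, was 0.25 over the members under Veh and 0.32 over all genes. In bulk RNA, fewer cells with a transcript and less transcript per cell cannot be told apart.

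Within the Misshapen branch, the kinases went in different directions. MAP4K4, also called HGK, had 24260, 23957 and 22329 normalized counts in wt-GR under Veh and 23162, 22898 and 21831 under TGFβ1. In S134A-GR it had 12430, 12435 and 13233 under Veh and 13609, 13268 and 13065 under TGFβ1. All 6 S134A-GR libraries therefore lay well under the lowest wt-GR library. The log2 fold change of S134A-GR over wt-GR was −0.89 ± 0.04 (SE) under Veh and −0.76 ± 0.04 under TGFβ1, which put the level in S134A-GR at 0.54 and 0.588 of that in wt-GR.

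MINK1, the Misshapen-like kinase nearest to MAP4K4 in level, was higher in S134A-GR. Its libraries read 14392, 13972 and 13761 normalized counts in wt-GR under Veh and 16443, 15481 and 16358 in S134A-GR under Veh. Under TGFβ1 they read 13440, 12572 and 12812 in wt-GR and 13756, 15221 and 15710 in S134A-GR. The lines did not overlap within either treatment, and the log2 fold change was 0.20 ± 0.05 (SE) under both. TNIK, a partner of the Wnt effector TCF4, was the least abundant of the branch. It had 1129, 939 and 851 normalized counts in wt-GR under Veh against 842, 985 and 883 in S134A-GR, with overlapping libraries and a log2 difference of −0.10 ± 0.09. Under TGFβ1 it had 772, 691 and 706 in wt-GR and 819, 792 and 813 in S134A-GR, a log2 difference of 0.16 ± 0.09.

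The ratio of MAP4K4 to MINK1 within a library removes the scaling between libraries. On counts per kilobase it was 1.10 ± 0.031 in wt-GR under Veh, 1.15 ± 0.041 in wt-GR under TGFβ1, 0.519 ± 0.019 in S134A-GR under Veh and 0.59 ± 0.054 in S134A-GR under TGFβ1 (SD, n = 3). MAP4K4 exceeded MINK1 in all 6 wt-GR libraries, where the lowest ratio was 1.07, and stayed under it in all 6 S134A-GR libraries, where the highest was 0.651. MAP4K4 made up 51.2% ± 0.65 of the summed Misshapen level in wt-GR under Veh and 33.3% ± 0.77 in S134A-GR under Veh. The summed Misshapen level itself ran from 3691 to 3957 counts per kb in wt-GR under Veh and from 3094 to 3264 in S134A-GR, so it differed less in proportion than MAP4K4 alone. Of the summed level of all 10 members, MAP4K4 made up 22.5% in wt-GR and 13.6% in S134A-GR under Veh.

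**Figure D2:**
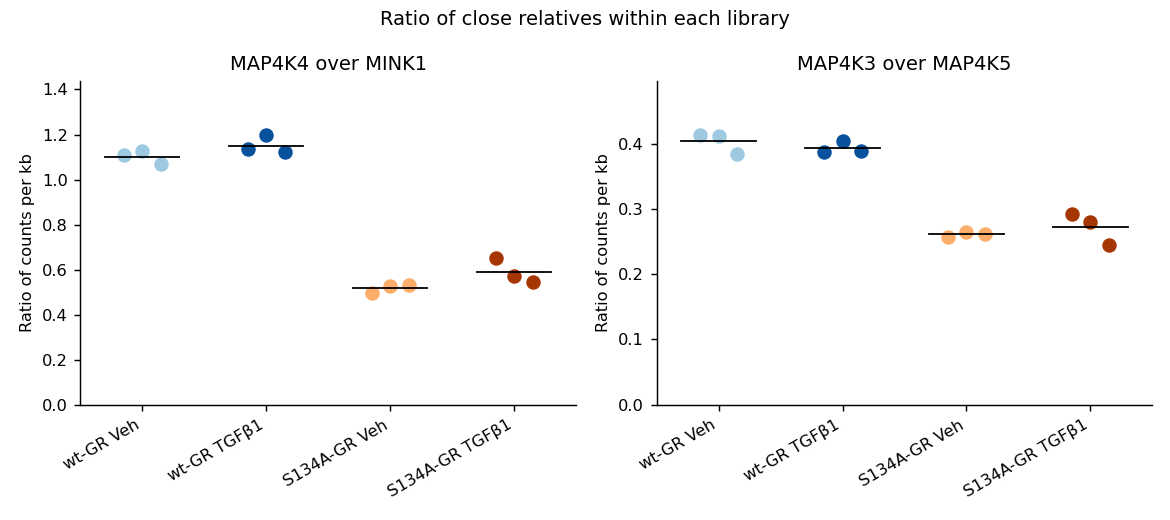
Each point is 1 library and each line the mean of 3, for the ratio of counts per kilobase of MAP4K4 over MINK1 (left) and of MAP4K3 over MAP4K5 (right), with axes from 0. Both ratios are lower in every S134A-GR library than in any wt-GR library.

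Of MAP4K2, MAP4K3 and MAP4K5, MAP4K3 differed most between the lines. MAP4K3, or GLK, is a kinase linked to amino acid sensing upstream of mTORC1. It had 3503, 3678 and 3276 normalized counts in wt-GR under Veh and 1973, 2105 and 2030 in S134A-GR under Veh. Under TGFβ1 it had 3151, 3484 and 3216 in wt-GR and 2400, 2248 and 2047 in S134A-GR. The lines did not overlap under either treatment. The log2 fold change was −0.77 ± 0.06 (SE) under Veh and −0.56 ± 0.06 under TGFβ1.

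MAP4K2, an activator of the JNK cascade, was lower in S134A-GR by less. Its libraries read 2038, 2080 and 2053 normalized counts in wt-GR under Veh and 1892, 1836 and 1768 in S134A-GR under Veh. Under TGFβ1 the values were 2091, 1890 and 2170 against 1564, 1677 and 1620. No S134A-GR library reached a wt-GR library of the same treatment, and the log2 fold change was −0.17 ± 0.06 (SE) under Veh and −0.34 ± 0.06 under TGFβ1. MAP4K5, the closest relative of MAP4K3, was more abundant than either. It ran from 10614 to 11168 normalized counts in wt-GR and from 9592 to 9986 in S134A-GR under Veh, without overlap, and its log2 fold changes were −0.15 ± 0.04 under Veh and −0.02 ± 0.04 under TGFβ1. The ratio of MAP4K3 to MAP4K5, on counts per kilobase, was 0.403 ± 0.016 in wt-GR and 0.261 ± 0.0032 in S134A-GR under Veh (SD, n = 3).

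MAP4K1, or HPK1, is mainly a kinase of blood cells, and it was close to the floor. The libraries held 4, 2 and 10 reads in wt-GR under Veh, 9, 8 and 16 in wt-GR under TGFβ1, 12, 9 and 19 in S134A-GR under Veh and 17, 29 and 14 in S134A-GR under TGFβ1. Its lines overlapped under both treatments, and the log2 differences were 1.02 ± 0.53 and 0.71 ± 0.53 (SE). The blood cell markers PTPRC, CD14 and ITGAM, 3 of the 5 on the list, summed to 33.8 to 42.1 normalized counts in wt-GR under Veh and 8.11 to 23.2 in S134A-GR under Veh. Over all libraries PTPRC lay between 0 and 9.8, ITGAM between 0 and 9.51 and CD14 between 2.03 and 37.5. CD14 made up most of the sum in wt-GR under Veh, with means of 30.4 in wt-GR and 4.62 in S134A-GR. PTPRC went the other way, from 3.86 to 7.18, and ITGAM had 4.06 and 2.39. Their part in the MAP4K1 values was not tested.

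The TAO kinases were all expressed, and 2 of the 3 were higher in S134A-GR. TAOK3, also called JIK, had 10154, 10487 and 10402 normalized counts in wt-GR and 11783, 11763 and 12291 in S134A-GR under Veh. Under TGFβ1 it had 9789, 9721 and 9488 in wt-GR and 11408, 12060 and 12203 in S134A-GR. All S134A-GR libraries stood above all wt-GR libraries, and the log2 fold change was 0.21 ± 0.03 (SE) under Veh and 0.30 ± 0.03 under TGFβ1. TAOK2, a kinase studied in neurons for its effect on dendrites, had 6004, 6224 and 6223 normalized counts in wt-GR against 7504, 7344 and 7722 in S134A-GR under Veh. Under TGFβ1 its lines overlapped, with 6460, 5957 and 6140 in wt-GR and 6337, 6853 and 7460 in S134A-GR. Its log2 fold change was 0.29 ± 0.05 under Veh and 0.15 ± 0.05 under TGFβ1.

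TAOK1, the founding member of the branch, varied most between replicates. In wt-GR under Veh it had 19558, 15999 and 12903 normalized counts, of which the highest came from the shallowest library, and in S134A-GR under Veh it had 12158, 12559 and 13214. The lines overlapped. Its log2 fold change was −0.33 ± 0.11 (SE) under Veh and −0.08 ± 0.11 under TGFβ1, and the Veh value was −0.19 without library 1 of wt-GR, when it no longer passed. The summed TAO level ran from 2447 to 2788 counts per kb in wt-GR under Veh and from 2680 to 2815 in S134A-GR, with overlap. Under TGFβ1 it ran from 2459 to 2493 in wt-GR and from 2686 to 2772 in S134A-GR, without overlap.

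**Figure D3:**
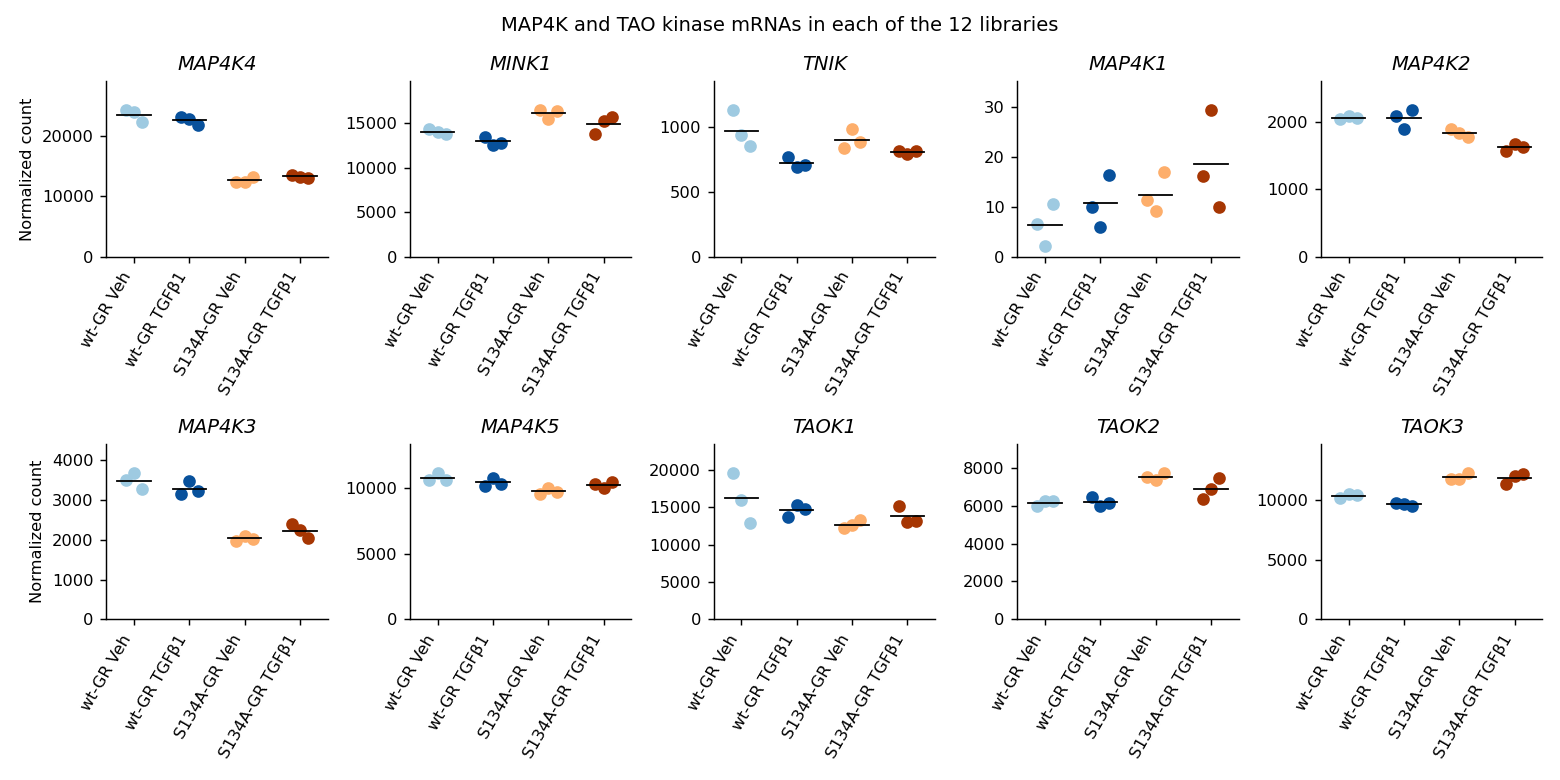
Each point is the normalized count of 1 library and each line the mean of 3, with axes from 0. MAP4K4 and MAP4K3 are lower in all 6 S134A-GR libraries than in all wt-GR libraries, TAOK3 and MINK1 are higher within each treatment, TAOK1 is widely spread in wt-GR under Veh, and MAP4K1 stays under 30 normalized counts.

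Because each line was 1 clone, the genes next to each member on its chromosome were set beside it. The comparison took the 25 tested genes on either side, ordered by GENCODE positions. Under Veh, 26.5% of all genes tested passed as lower and 25% as higher. For MAP4K4, on chromosome 2, the median log2 fold change of the 50 neighbours under Veh was −0.06, 3 of the 50 were lower than MAP4K4, and 15 passed as lower and 8 as higher. MAP4K3, also on chromosome 2, lay among genes that were mostly lower as well: 35 of 50 neighbours passed as lower and 3 as higher, with a median of −0.37, and 8 were lower than MAP4K3 itself. With 10 genes on either side, 1 of 20 neighbours was lower than MAP4K3 under either treatment, and 2 of 20 under Veh and 4 of 20 under TGFβ1 were lower than MAP4K4. Around MAP4K2 on chromosome 11, 34 of 50 neighbours passed as lower and 0 as higher, with a median of −0.30, which lies beyond the −0.17 of MAP4K2. With 10 genes on either side, 10 of its 20 neighbours passed as lower and 0 as higher under Veh, with a median of −0.20. Under TGFβ1 the median of the 50 neighbours was −0.34, beside −0.34 for MAP4K2, and 26 of 50 were lower than MAP4K2. With 10 genes on either side the TGFβ1 median was −0.20, and 4 of 20 were lower than MAP4K2. Around TAOK3 on chromosome 12, 30 of 50 passed as higher and 2 as lower, with a median of 0.30 against 0.21 for TAOK3. The neighbours of TAOK2 on chromosome 16 had a median of 0.19, with 21 of 50 higher and 6 lower. Those of MINK1 and TAOK1, both on chromosome 17, had medians of −0.0026 and 0.02, and 3 of 50 neighbours were lower than TAOK1. Copy number was not measured, and the part of the chromosomal surroundings in these differences was not tested.

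**Figure D4:**
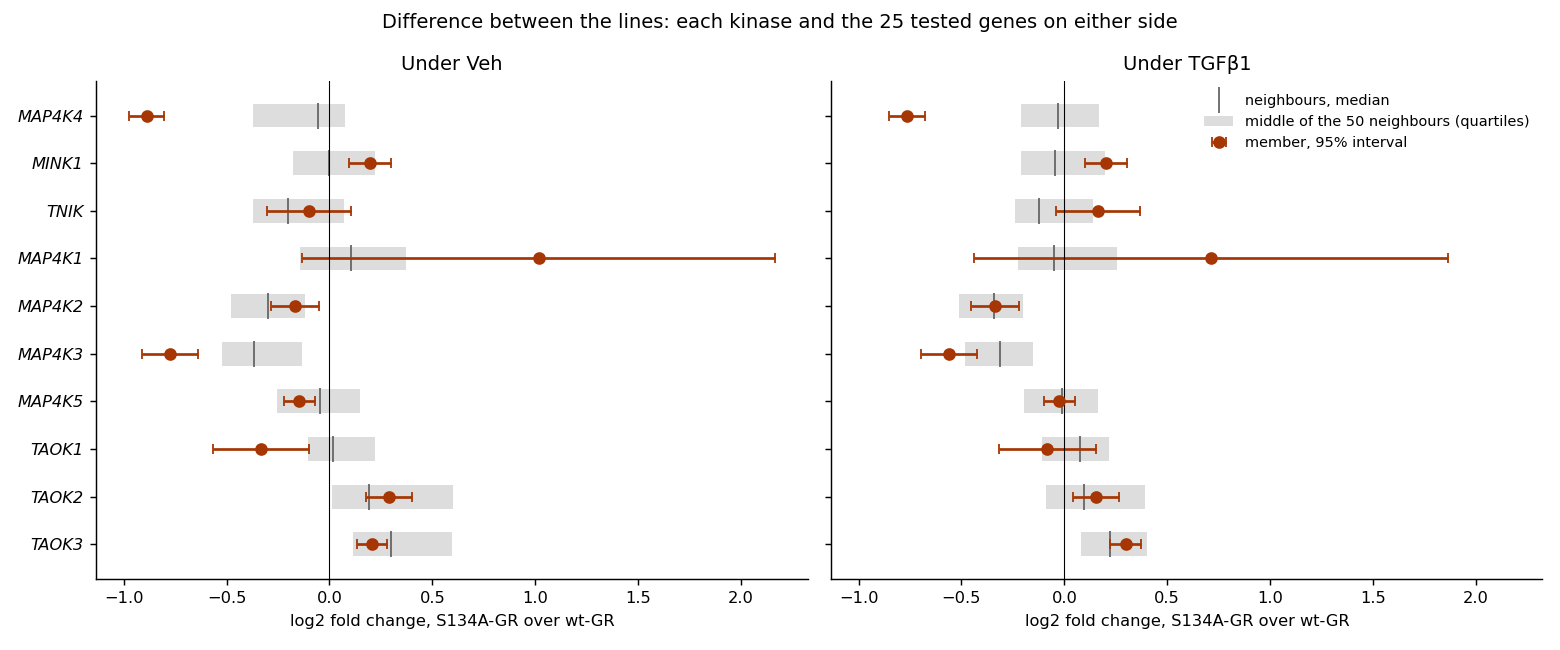
Points give the log2 fold change of S134A-GR over wt-GR for each kinase with its 95% interval, grey bars the quartiles of the 50 neighbouring tested genes and ticks their median, under Veh (left) and TGFβ1 (right). MAP4K1, MAP4K3 and MAP4K4 lie outside the quartiles of their neighbours under both treatments. TAOK1 does so under Veh only, and TNIK and, narrowly, MINK1 under TGFβ1 only, while MAP4K2, MAP4K5, TAOK2 and TAOK3 lie within theirs.

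The response to TGFβ1 asks whether 6 h of the cytokine changed the mRNA of these kinases. In wt-GR cells 1 of 10 members passed an adjusted p of 0.05 by limma, against 21% of all genes tested, and it fell (9.82% of all genes fell and 11.2% rose). That member was TNIK, whose 3 TGFβ1 libraries, at 691 to 772 normalized counts, all lay under the 3 Veh libraries, at 851 to 1129. Its log2 fold change was −0.42 ± 0.09 (SE), adjusted p = 0.00548 by limma. MINK1 and TAOK3 also had TGFβ1 libraries that all lay under the Veh libraries, with log2 fold changes of −0.12 ± 0.05 and −0.10 ± 0.03, but adjusted p-values of 0.097 and 0.0614 by limma. For 3 of 10 members the treatments did not overlap, against 33.9% of all genes. The count of members that passed was 2 without library 3 of wt-GR under Veh, when TAOK1 was added, and 3 without library 1 of S134A-GR under TGFβ1, when MINK1 and TAOK3 were added.

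In S134A-GR cells 1 of 10 members passed, against 18.7% of all genes, and it fell (8.69% of all genes fell and 10% rose). That member was MAP4K2, with 1892, 1836 and 1768 normalized counts under Veh and 1564, 1677 and 1620 under TGFβ1. The log2 fold change was −0.18 ± 0.06 (SE), adjusted p = 0.0373 by limma. The call was near the threshold and was lost in 6 of 21 alternative settings. In 5 of these 1 library was left out, library 2 of wt-GR under Veh, library 1 or 2 of S134A-GR under Veh, or library 1 or 3 of S134A-GR under TGFβ1, with adjusted p-values by limma from 0.0523 to 0.139. Without that last library TAOK2 passed, at an adjusted p of 0.0151 by limma. MINK1 passed there only just, at an adjusted p of 0.05 by limma after rounding, so the count was then 2. TNIK libraries did not overlap here either and were lower under TGFβ1, with a log2 change of −0.16 ± 0.09 and an adjusted p of 0.296 by limma. MAP4K5 was higher in all 3 TGFβ1 libraries by 0.07 ± 0.04, adjusted p = 0.179 by limma. Together 3 of 10 members did not overlap, against 35.6% of all genes.

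MAP4K4 did not pass in either line. Its log2 change under TGFβ1 was −0.05 in wt-GR, with a 95% interval from −0.14 to 0.03, and 0.07 in S134A-GR, with an interval from −0.02 to 0.16. These intervals leave room for a change of up to 0.16 on the log2 scale. For TAOK1 the intervals were wider, from −0.36 to 0.11 in wt-GR and from −0.11 to 0.36 in S134A-GR.

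**Figure D5:**
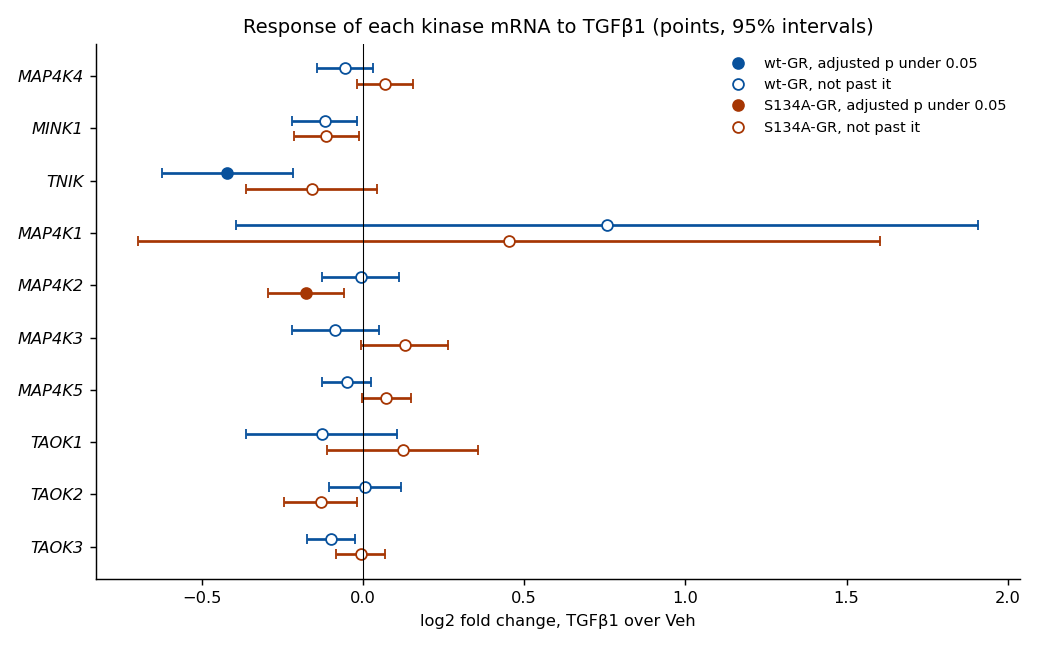
Points give the log2 fold change of TGFβ1 over Veh for each kinase in wt-GR (blue) and S134A-GR (brown) cells, bars the 95% interval, and filled points an adjusted p under 0.05. TNIK in wt-GR and MAP4K2 in S134A-GR are the filled points, and the intervals of MAP4K1 are the widest.

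The difference between the responses, S134A-GR minus wt-GR, was tested as an interaction. By limma 0 of 10 members passed an adjusted p of 0.05, where 0.414% of all genes did, and 0 passed with edgeR or DESeq2 on the recovered reads. MAP4K2, MAP4K3, MAP4K4 and MAP4K5 had an unadjusted p under 0.05 by limma. The share of all genes at that unadjusted p is not given here, so nothing is read from their number. MAP4K3 had the largest of these differences, 0.22 ± 0.09 (SE) on the log2 scale with an adjusted p of 0.482 by limma, from a change of −0.09 in wt-GR and 0.13 in S134A-GR. For TNIK the difference was 0.26 ± 0.13, adjusted p = 0.577 by limma, so its fall in wt-GR was not shown to be particular to that line. The adjusted p-values of MAP4K2, MAP4K4 and MAP4K5 were 0.529, 0.532 and 0.465 by limma.

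The kinases that act with the MAP4K and TAO kinases were counted on 5 lists. Over all genes tested, 11.2% rose and 9.82% fell in wt-GR, and 10% rose and 8.69% fell in S134A-GR. Of the MAP3Ks, the tier below the MAP4Ks, 15 of 18 were tested, and 2 rose and 4 fell with TGFβ1 in wt-GR, while 2 rose and 2 fell in S134A-GR. MAP3K2 (MEKK2) rose by 0.32 ± 0.07 and 0.44 ± 0.07 on the log2 scale (SE), adjusted p = 0.00566 and 0.000604 by limma. MAP3K5 (ASK1), which the study itself followed on these samples and which is no independent choice, had a log2 change of −0.44 ± 0.07 in wt-GR and −0.38 ± 0.07 in S134A-GR, adjusted p = 0.000321 and 0.00121 by limma. Its means were 2240 ± 140 and 1646 ± 98.6 normalized counts in wt-GR under Veh and TGFβ1, and 1005 ± 53.5 and 770 ± 45.0 in S134A-GR (SD, n = 3).

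All 11 MAP2Ks, JNKs and p38 kinases on the second list were tested, and 2 rose and 2 fell in wt-GR, while 3 rose and 2 fell in S134A-GR. MAP2K6 (MKK6), an activator of p38 and a target of the TAO kinases, fell furthest. It had 322 ± 41.0 normalized counts under Veh and 130 ± 13.4 under TGFβ1 in wt-GR, and 150 ± 8.36 and 43.3 ± 10.7 in S134A-GR (SD, n = 3). The log2 fold changes were −1.31 ± 0.18 and −1.79 ± 0.18 (SE), adjusted p = 9.34e-05 and 5.01e-06 by limma. The difference between these responses did not pass, at −0.49 ± 0.25 with an adjusted p of 0.577 by limma.

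The STRIPAK complex, which binds the Misshapen kinases, held 19 tested genes. With TGFβ1, 4 rose and 0 fell in wt-GR, and 6 rose and 0 fell in S134A-GR. No STRIPAK gene was lower at an unadjusted p of 0.05 by limma in either line, and edgeR and DESeq2 gave 0 that fell as well. The list medians were 0.04 and 0.13 on the log2 scale, where all genes had −0.0046 and −0.0097. STK24 (MST3), a STRIPAK-bound kinase, rose in wt-GR by 0.26 ± 0.03 (SE), adjusted p = 2.86e-05 by limma, from 14466 ± 55.4 to 17343 ± 292 normalized counts (SD, n = 3). In S134A-GR its means went the same way, from 9415 ± 136 to 10847 ± 321. PDCD10, which holds such kinases in the complex, rose in S134A-GR by 0.23 ± 0.06, adjusted p = 0.0101 by limma. Its means in wt-GR were also higher under TGFβ1, at 7052 ± 238 against 6245 ± 309 under Veh. Between the lines under Veh, 11 of the 19 were lower in S134A-GR and 1, STRIP2, was higher, where 26.5% of all genes tested were lower and 25% higher.

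The Hippo core held 14 tested genes, of which 0 rose and 2 fell with TGFβ1 in wt-GR, while 2 rose and 2 fell in S134A-GR. By limma 1 was higher in wt-GR at an unadjusted p of 0.05, and edgeR and DESeq2 also gave 0 that rose. WWTR1 (TAZ), a coactivator downstream of LATS, fell in both lines, by 0.21 ± 0.04 and 0.22 ± 0.04 on the log2 scale (SE), adjusted p = 0.00333 and 0.00221 by limma. NF2, an upstream activator of LATS, rose in S134A-GR by 0.22 ± 0.06, adjusted p = 0.0215 by limma. Between the lines under Veh, 10 of the 14 were lower in S134A-GR and 1 was higher, TEAD2, a DNA-binding partner of YAP1, where 26.5% of all genes tested were lower and 25% higher. YAP1 had 21266 ± 1810 normalized counts in wt-GR and 12506 ± 231 in S134A-GR under Veh (SD, n = 3).

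Of 15 other STE20 kinases, 11 were tested. With TGFβ1, 0 rose and 3 fell in wt-GR, and 2 rose and 3 fell in S134A-GR. By limma 0 were higher in wt-GR at an unadjusted p of 0.05, and edgeR and DESeq2 gave 0 that rose. PAK6, a p21-activated kinase, fell in both lines, by 1.10 ± 0.17 and 0.79 ± 0.17 on the log2 scale (SE), adjusted p = 0.000281 and 0.00395 by limma. STK39 (SPAK), which regulates ion cotransporters, rose in S134A-GR by 0.21 ± 0.04, adjusted p = 0.00391 by limma. Between the lines under Veh, 6 of the 11 other STE20 kinases were lower in S134A-GR and 1 was higher. Of the 15 MAP3Ks, 6 were lower and 4 higher, and of the 11 MAP2Ks, JNKs and p38 kinases, 6 were lower and 2 higher. Over all 5 lists, 39 of 70 were lower and 9 higher, where 26.5% of all genes tested were lower and 25% higher. These counts are a description. Among the 5 lists, CTTNBP2 of STRIPAK and MYO3B of the other STE20 kinases passed as higher in S134A-GR under TGFβ1 by over 1 on the log2 scale, but at means of 5.04 and 4.58 normalized counts against 0.488 and 0.741 in wt-GR, where both lie at or near the floor and no fold is given. In the test of the difference between responses, 0 of the 70 tested genes of the 5 lists passed with limma, edgeR or DESeq2. An unadjusted p under 0.05 by limma was found for 6, and nothing is read from this number without the share of all genes.

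The 5 genes whose log2 values followed MAP4K4 most closely over the 12 libraries were FCHSD2, PAN3, MYO5C, ADAM17 and MSH3, among 12468 genes with a mean of at least 100 normalized counts. Pearson's r lay between 0.995 and 0.997, as a description over libraries that share the 2 lines. FCHSD2, a regulator of endocytosis and actin, had means of 3286 ± 188 and 1844 ± 69.3 normalized counts in wt-GR and S134A-GR under Veh (SD, n = 3), and MYO5C, a motor protein of secretory cells, had 559 ± 107 and 45.8 ± 8.21. ADAM17, the sheddase that frees EGFR ligands and is also on chromosome 2, had 8540 ± 445 and 4120 ± 82.7. These genes lie on 5 different chromosomes.

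RefSeq start-site windows (GRCh38.p14, 250 bases before to 50 after the start) were found for all 10 members, 14 windows in all. They were read on both strands for the GR half-site AGAACA, the AP-1 letters TGANTCA, the SMAD-type letters CCAGACA and the TEAD letters GGAATG, none of which contains another. Of 35116 windows of all genes, 14.8%, 7.71%, 4.78% and 14% held these letters. Among the members, a GR half-site was found in 1 window of TAOK3 and in that of MAP4K5, TEAD letters in the same window of TAOK3, and the AP-1 and SMAD-type letters in none. No window of MAP4K4 held any of the 4. The stretch of TAOK3 is shown because it holds the half-site outside annotated exons, at chr12:118190708-118190773 on the minus strand, with the half-site in capitals 208 bases before the start.
TAOK3: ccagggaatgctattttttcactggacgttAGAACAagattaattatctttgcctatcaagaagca
Such a match is a description of the letters, and binding was not measured in these libraries.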

How the data were processed

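RNA-seq (TruSeq, HiSeq2500, 75-base pairs) was done on 12 libraries. Per the study's methods, reads were checked with FastQC 0.11.7, trimmed, aligned to hg38 with HISAT2 and counted per gene with featureCounts; the annotation, the strand setting and the counting of read pairs are not given in the sources used here. The authors deposited counts divided by DESeq2 (1.22.2) size factors, so the signal in each file is a normalized count. With size factors of 0.614 to 1.40, 100% of values came out as whole reads within 0.1 read. Floors cover counting error only.

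Tests used limma 3.58.1 (trend) on log2(normalized count + 1) in 1 model of 4 group means, with Benjamini-Hochberg adjustment over 18579 genes with at least 10 reads. The pseudocount understates changes of low genes. Tests on simulated data recovered the planted changes. These were planted in 1 comparison and were larger than any member's change here, so power for changes of the members' size was not tested. Alternatives were edgeR 4.0.16 and DESeq2 1.42.0 on recovered reads, other normalization, pseudocounts of 0.5 and 16, other filters, the groups compared alone, a replicate block and each library left out. Members and lists were chosen with earlier results of these data known. Named list genes passed with a log2 change of at least 1 or were the extremes of their list at a mean of at least 100 normalized counts; extremes that did not pass were mostly left out. Lengths, positions and proteins came from GENCODE release 44 (hg38), promoters from RefSeq.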

Additional observations from a re-analysis of the deposited data

How the results depend on the processing

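Among 440 recomputed member fold changes outside the leave-one-out fits, the call changed for TAOK1 under Veh and TAOK2 under TGFβ1 between the lines with the groups compared alone, for TAOK3 in wt-GR with DESeq2 and for MAP4K2 in S134A-GR with the replicate block, and the sign turned for MINK1 with edgeR. The number of members past the threshold between the lines was 8 under Veh and 6 under TGFβ1 with edgeR, DESeq2, both pseudocounts, both filters and the replicate block, and 7 and 5 with the groups compared alone, when TAOK1 and TAOK2 no longer passed. Leaving out 1 library gave 6 to 9 under Veh and 5 to 6 under TGFβ1. For TGFβ1 in wt-GR the count was 2 with DESeq2, which added TAOK3, and 1 to 3 when 1 library was left out: it was 2 without library 3 of wt-GR under Veh (TAOK1 added) and 3 without library 1 of S134A-GR under TGFβ1 (MINK1 and TAOK3 added). TNIK passed in all 21 alternatives, with adjusted p-values from 0.000184 to 0.042. For TGFβ1 in S134A-GR the count was 0 with the replicate block, where MAP4K2 had an adjusted p of 0.0616, and 0 to 2 when 1 library was left out. It was 0 without library 2 of wt-GR under Veh, library 1 or 2 of S134A-GR under Veh, or library 1 of S134A-GR under TGFβ1. Without library 3 of S134A-GR under TGFβ1 it was 2, with TAOK2 and, only just, MINK1 in place of MAP4K2. The cause was not tested. For the difference between responses the count was 0 in every alternative.

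The replicate block is not a paired analysis by design. Libraries of different groups with the same number had deviations that correlated by 0.00089 on average over 18 pairs (−0.154 to 0.154) and those with other numbers by −0.00032, so the numbers were not treated as pairs.

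Each change whose sign turned had not passed. With edgeR the difference between responses of MINK1 was −0.00217 in place of 0.00468. When 1 library was left out, the difference of TNIK between the lines under Veh ran from −0.192 to 0.0125 in place of −0.10, the change in wt-GR ran from −0.279 to 0.0214 for TAOK1, from −0.0241 to 0.0344 for TAOK2 and from −0.0494 to 0.0503 for MAP4K2, that of TAOK3 in S134A-GR from −0.0260 to 0.0226, and the difference between responses from −0.0349 to 0.0610 for MINK1 and, in place of −0.304, from −0.721 to 0.223 for MAP4K1. With TMM scaling all 40 ratios of member levels moved by less than the spread between replicates. With 10 genes on either side, 15 of 20 neighbour medians stayed close and 5 moved. These were the medians of MAP4K2 and MAP4K4 under both treatments and of MAP4K5 under Veh. For MAP4K2 the median was −0.20 in place of −0.30 under Veh and −0.20 in place of −0.34 under TGFβ1. For MAP4K4 it was −0.16 in place of −0.06 under Veh and 0.02 in place of −0.03 under TGFβ1. For MAP4K5 it was 0.0074 in place of −0.04 under Veh. Depth limits MAP4K1 only.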
